A study of Caenorhabditis elegans with 2 samples.

Results

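The genes described here encode the translation factors and the aminoacyl-tRNA synthetases of Caenorhabditis elegans, examined for binding of the nuclear hormone receptor NHR-10. They were selected by name from the protein-coding genes of Ensembl WBcel235, the assembly also called ce11. The factors are the genes with an eef, eif, ife or ifg name, and the synthetases are those named by an amino acid letter and ars, with the suffix 1 or 2. The rule gave 37 factor genes and 31 synthetase genes, together 68 of the 19973 protein-coding genes on the nuclear chromosomes. Binding was measured by ChIP-seq, chromatin immunoprecipitation followed by sequencing, in L2 larvae of strain OP239, unc-119(ed3) III; wgIs239, in which NHR-10 is stably expressed with GFP-FLAG at its C terminus. Whole animals were used, males and females pooled, their age is labelled unknown, and chromatin was sheared by sonication. There were 2 biological replicates of this single group, so nothing could be compared between genotypes or treatments, and all values describe where the receptor was found. Both replicates carry the same integrated transgene and the unc-119 mutation, and the promoter that drives the transgene is not given in the sources used here. Whole-larva chromatin averages all tissues.

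Translation starts when initiation factors bring the small ribosomal subunit, the initiator tRNA and a capped mRNA together. In that step eIF4E binds the cap, eIF4G bridges it to the ribosome, eIF3 coordinates the assembly and eIF2 carries the initiator tRNA. The exchange factor eIF2B recharges eIF2 with GTP. Elongation factors then deliver each charged tRNA (eEF1A, recharged by the eEF1B complex) and move the ribosome along the mRNA (eEF2). The tRNA synthetases attach each amino acid to its tRNA, and the cytoplasm and the mitochondrion need their own supply. NHR-10 is known for its part in switching on propionate breakdown when vitamin B12 is low.

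Each gene was represented by the region of highest signal, in the list made from both replicates together, whose summit lay within 1000 bp of any of its transcription start sites (TSSs). This pooled list held 30000 regions with a median signal of 8.38. The signal is the authors' own value for a region, and its scale is not stated, so it ranks regions within a list. A region is called thresholded where it overlaps the authors' thresholded list, which held 491 regions at signals of 27.4 and above. That list was made with the irreproducible discovery rate, which scores how well the rank of a region repeats. The replicate lists held 22993 regions (replicate 1) and 30000 regions (replicate 2), on separate scales, with median signals of 3.12 and 6.86. The lists give no read counts, so depth is unknown and no interval could be set on a signal.

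Thresholded regions lay at 8 of the 68 genes, 7 factors and 1 synthetase. For the factors this was 18.9% of 37 genes and for the synthetases 3.23% of 31, where 2.49% of all protein-coding genes had one. The synthetase share was thus near that of genes in general. The 7 factor genes were eef-2, eif-3.C, eef-1A.2, eef-1G, eef-1A.1, eif-3.B and eif-2Bbeta, and the synthetase gene was ears-2. Signals at these 8 genes ran from 29.0 to 62.8, and the highest of the other members was 24.7. The difference between the factors and the synthetases was not tested.

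Sequences at these summits are shown to let the thresholded promoters be compared by eye with each other and with one of lower signal. They come from the RefSeq genome of the WBcel235 assembly and are written on the strand of the named gene. Each spans 200 bp around the summit, shortened where an annotated transcript begins. Capitals mark any of 7 words looked for on both strands. The words were the GA repeat GAGAGA, the E-box CACGTG, the half-sites of nuclear receptors AGTTCA plus AGGTCA, the GATA-type word TGATAA, the CRE-type word TGACGT, as well as GACGCA. Those of eef-1A.2 and eef-1A.1 hold GAGAGA, and that of eef-1G holds AGTTCA on the other strand.
eef-1A.2, chrX:7823167-7823366, plus strand: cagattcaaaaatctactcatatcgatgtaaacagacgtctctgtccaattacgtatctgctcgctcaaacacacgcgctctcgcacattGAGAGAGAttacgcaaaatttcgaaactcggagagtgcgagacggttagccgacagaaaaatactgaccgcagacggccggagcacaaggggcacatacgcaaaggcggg
eef-1A.1, chrIII:6972004-6972203, minus strand: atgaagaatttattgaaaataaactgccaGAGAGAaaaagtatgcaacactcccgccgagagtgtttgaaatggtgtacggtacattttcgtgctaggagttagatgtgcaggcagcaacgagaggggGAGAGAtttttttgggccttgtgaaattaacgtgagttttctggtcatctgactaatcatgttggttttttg
eef-1G, chrV:10965571-10965718, plus strand: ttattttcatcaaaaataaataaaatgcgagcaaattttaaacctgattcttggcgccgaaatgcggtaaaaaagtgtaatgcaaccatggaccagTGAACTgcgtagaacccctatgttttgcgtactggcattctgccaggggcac
eif-3.B, chrII:14794985-14795184, plus strand: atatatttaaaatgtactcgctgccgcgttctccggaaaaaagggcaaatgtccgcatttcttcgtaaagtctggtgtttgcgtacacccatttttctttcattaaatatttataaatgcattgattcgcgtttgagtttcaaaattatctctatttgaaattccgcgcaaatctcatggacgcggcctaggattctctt
ears-2, chrIV:390469-390559, minus strand: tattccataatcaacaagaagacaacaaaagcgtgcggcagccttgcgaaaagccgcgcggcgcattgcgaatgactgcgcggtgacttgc
eef-1B.2, chrIV:15036370-15036569, plus strand: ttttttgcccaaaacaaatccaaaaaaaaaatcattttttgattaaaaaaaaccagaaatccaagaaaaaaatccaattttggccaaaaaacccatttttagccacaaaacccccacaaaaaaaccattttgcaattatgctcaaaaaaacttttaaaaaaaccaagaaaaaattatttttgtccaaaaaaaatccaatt

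The last of these, eef-1B.2, from an elongation factor gene with signal 13.3, holds none of the words, and neither do the thresholded eif-3.B and ears-2. Its GC content of 25.0% is low also among members that are not thresholded, whose median is 37.0%. The 200 bp windows of the thresholded genes shown have 49.5% (eef-1A.2), 45.5% (ears-2), 41.0% (eef-1A.1), 40.0% (eef-1G) and 38.0% (eif-3.B). Those of the thresholded genes not shown have 43.0% (eef-2), 40.0% (eif-3.C) and 29.0% (eif-2Bbeta). The last of these is below the 37.0% median of members that are not thresholded. The stretch at ears-2 is only 91 bases long because it is all that separates ears-2 from the start of the neighbouring gene. The members on chromosome I are not shown.

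Among the roles, the elongation factor genes had the highest median signal. This role holds only genes with an eef name, and the mitochondrial elongation factor genes are given with the other translation genes below. All 6 had a region, 4 of them thresholded (66.7%, beside 2.49% of all genes), and the median signal of the 6 was 36.1, where the median over all protein-coding genes with a region was 9.51. The gene eef-2, which encodes the GTPase that moves the ribosome along the mRNA (I, 9163531 to 9166952, plus strand), had the highest signal of all members. Its summit at 9163521 was 10 bp upstream of a TSS, with a pooled signal of 62.8 and rank 79. In replicate 1 the matching region had signal 11.3 and rank 218, and in replicate 2 signal 51.5 and rank 73. It was therefore among the 491 highest regions of either replicate.

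Worms have a pair of genes for eEF1A, the factor that brings charged tRNAs to the ribosome, and both carried thresholded regions. At eef-1A.2 (X, 7823654 to 7825769, plus strand) the summit at 7823267 was 387 bp upstream, with signal 44.4 and rank 162. Its replicate 1 region had signal 8.93 and rank 466, and its replicate 2 region signal 36.2 and rank 151. At eef-1A.1 (III, 6970026 to 6971712, minus strand) the summit at 6972104 was 392 bp upstream of its TSS, with signal 30.2 and rank 399. Here replicate 1 gave signal 10.8 and rank 263, and replicate 2 signal 22.6 and rank 440. The copies thus changed order between replicates, eef-1A.1 ranking higher in replicate 1 and eef-1A.2 in replicate 2 and in the pooled list. The summit at eef-1A.1 was nearer to rfc-4, a replication factor C subunit gene that starts in the opposite direction, at 149 bp from its TSS.

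The eEF1B complex, which returns eEF1A to its GTP-bound state, was uneven. Its gamma subunit gene eef-1G (V, 10965719 to 10967922, plus strand) had its summit at 10965671, 48 bp upstream, with signal 42.0 and rank 184. Replicate 2 ranked it at 226 with signal 30.5, and replicate 1 at 683 with signal 8.02. The exchange subunit genes were below the threshold. The gene eef-1B.1 had a region of signal 21.2 and rank 907 at 52 bp downstream of its TSS, and eef-1B.2 one of signal 13.3 and rank 3640 at 861 bp upstream. In replicate 2 the corresponding ranks were 942 and 10978, and in replicate 1 they were 7110 and 19331.

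**Figure D1:**
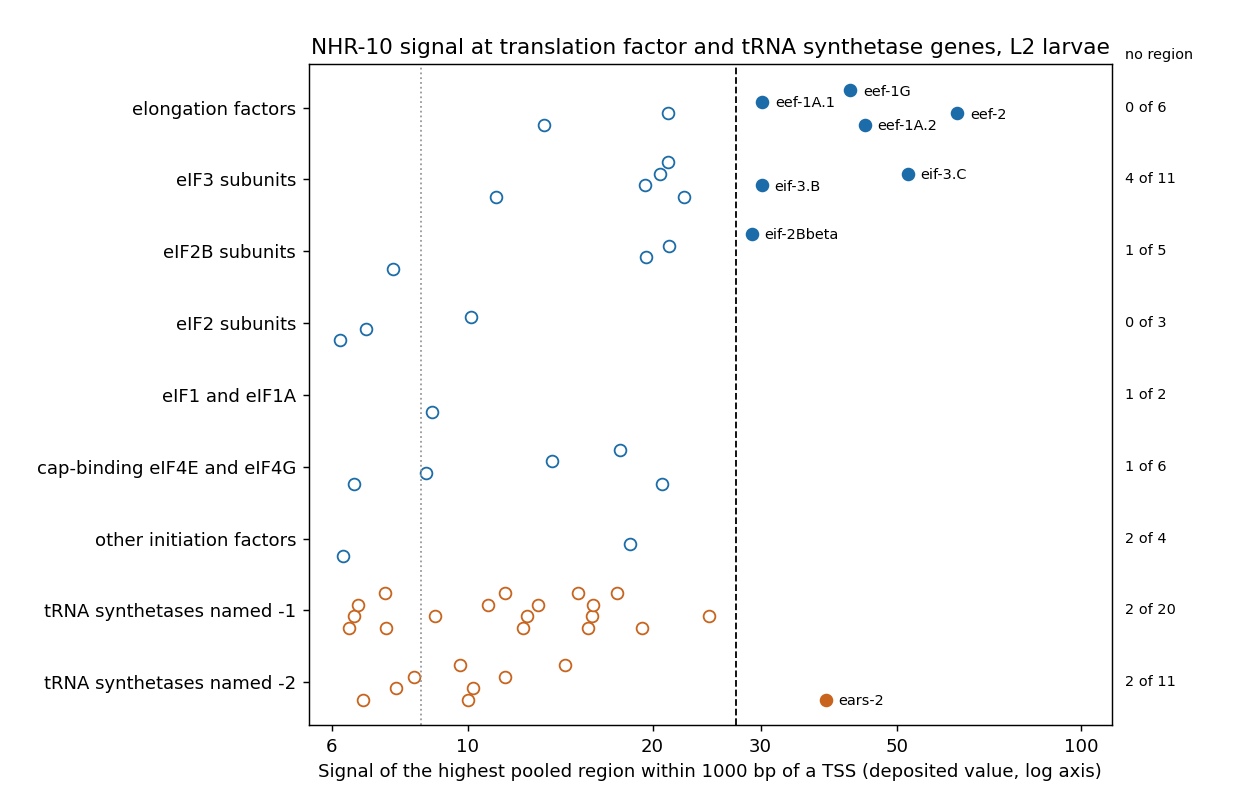
Signal of the highest pooled region within 1000 bp of a TSS (deposited value, log axis) for each gene, by role; 1 dot is 1 gene, filled where the region is thresholded. The dashed line is the lowest thresholded signal (27.4), the dotted line the median of the pooled list (8.38), dots are spread vertically for legibility, and the right margin counts genes with no region. Of the 6 elongation factor genes with an eef name 4 lie right of the dashed line, and of all synthetases only ears-2 does.

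Among the initiation factor genes, those of eIF3 included the highest signal, that of eif-3.C. It is the large complex that holds the small subunit ready for the mRNA, and 11 of its subunit genes carry an eif-3 name. Of these, 7 had a region (63.6%), not far from the 53.0% of all protein-coding genes. Thresholded regions lay at 2 of the 11 (18.2%, beside 2.49% of all genes). The gene eif-3.C (I, 9976426 to 9979662, minus strand) had its summit at 9979894, 232 bp upstream, with signal 52.1 and rank 119. Replicate 1 placed it at rank 86 with signal 15.5, the highest of any member there by matched region. Replicate 2 gave a signal of 37.0 and rank 144. The gene eif-3.B (II, 14795404 to 14798235, plus strand) had its summit at 14795085, 319 bp upstream, with signal 30.1 and rank 403. Its ranks in the replicates were far apart. Replicate 2 placed it at rank 382 with signal 24.3, while replicate 1 had it at 4127 with signal 4.67.

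The other eIF3 genes with a region fell below the threshold. They were eif-3.I with signal 22.5 and rank 793, eif-3.E (21.2, rank 915), eif-3.J (20.6, rank 978), eif-3.D (19.4, rank 1152) and eif-3.G (11.1, rank 6604). The region of eif-3.I ranked 693 in replicate 2 and had no overlapping region in replicate 1. No pooled region was within 1000 bp of a TSS of eif-3.F, eif-3.H, eif-3.K or eif-3.L. In the replicate lists eif-3.F had regions of rank 16482 (replicate 1) and 24744 (replicate 2) and eif-3.K one of rank 23622 (replicate 2). Subunits of a single complex therefore ran from rank 119 to no region in any list, at eif-3.H and eif-3.L.

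Among the 5 genes of eIF2B, the exchange factor that recharges eIF2, 1 was thresholded and 2 more ranked in the first 3000. Of the other 2, 1 was low and 1 had no region. Over all protein-coding genes, 2.49% had a thresholded region and 10.6% a rank in the first 3000. The eIF2B counts rest on 5 genes, and the difference from all genes was not tested. The gene eif-2Bbeta (I, 11891576 to 11893727, minus strand) had its summit at 11893829, 102 bp upstream of its own TSS and at the same distance from that of Y47H9C.8 on the other side. Its signal was 29.0 and its rank 436. Replicate 2 placed it at rank 311 with signal 26.8, but replicate 1 only at 8084 with signal 3.65. Next came eif-2Bgamma with signal 21.3 and rank 903, and eif-2Bdelta with signal 19.5 and rank 1129. The epsilon gene, which encodes the catalytic subunit, was low (7.56, rank 19321), and eif-2Balpha had no region.

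At eif-2Bgamma the replicates pointed to different places. The pooled region, 42 bp upstream, matched one of rank 649 in replicate 2 (signal 19.4), and replicate 1 had none that overlapped it. Replicate 1 instead had a region of signal 16.3 and rank 76, 945 bp upstream of the same TSS. This is the highest rank of any member in replicate 1 when a region anywhere within 1000 bp of a TSS is counted.

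The subunits of eIF2 itself were all far below the threshold, with eif-2beta near and the other 2 below the median signal of all genes with a region, 9.51. This factor carries the initiator tRNA and is the target of stress kinases through its alpha subunit. The gene eif-2beta had signal 10.1 and rank 8849, eif-2gamma 6.82 and rank 23889, and eif-2alpha 6.19 and rank 28561, the lowest rank among the members. The eif-2alpha summit was 432 bp downstream of a TSS, in an intron. None of the 3 had an overlapping region in both replicate lists. For the scanning factors, eif-1.A had signal 8.72 (rank 13539) and eif-1 had no pooled region and 1 of signal 3.76 (rank 7541) in replicate 1.

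The cap-binding side of initiation, 6 genes, had no thresholded region either. At the 2.49% of all protein-coding genes so few genes would rarely hold one, so nothing is read from this. In the first 3000 ranks were 2 of the 6 (33.3%), beside 10.6% of all protein-coding genes. Of the 5 eIF4E genes, ife-2 had signal 20.7 and rank 961, ife-3 17.7 and rank 1514, ife-5 8.53 and rank 14342, ife-1 6.53 and rank 26124, and ife-4 no pooled region. In replicate 2 alone ife-4 had a region of signal 8.77 and rank 7670, above the median of that list. For ife-1 the matched region in replicate 2 had signal 6.05 and rank 19812, and replicate 1 had none that overlapped. Elsewhere near ife-1, replicate 1 had a region of signal 5.85 and rank 2002, 889 bp downstream of a TSS. The scaffold gene ifg-1, which encodes eIF4G, had signal 13.7 and rank 3250, with its summit nearer to M110.3 than to its own TSS. Of the remaining genes with an eif name, eif-4A3, whose RefSeq product is an RNA helicase, had signal 18.4 (rank 1356). The gene eif-6, whose product keeps the large subunit from joining too early, had signal 6.26 (rank 28125), and eif-2A and eif-2D had no pooled region. In the replicate lists eif-2A had a region of rank 7094 in replicate 1 and eif-2D one of rank 16080 in replicate 2.

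The synthetases carried regions often, but fewer of them ranked high than among the factors. Of the 31 genes, 27 had a pooled region in reach (87.1%), and so had 28 of the 37 factor genes (75.7%), where 53.0% of all protein-coding genes did. Ranks in the first 3000 were held by 9 synthetases (29.0%) and 17 factors (45.9%), and by 10.6% of all protein-coding genes. The median rank of the genes with a region was 5989 for synthetases, 1140.5 for factors and 10685 over all genes. By median rank and by the first 3000 ranks the synthetases therefore lay between the factors and all genes. More of them than of the factors had a region at all, and at the threshold their share was close to that of all genes.

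**Figure D2:**
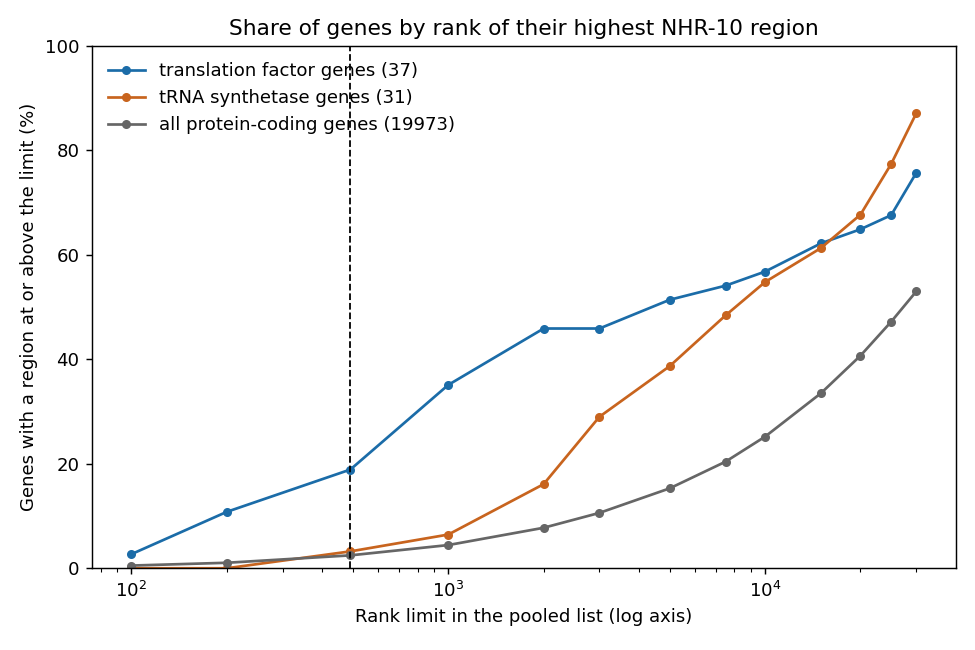
Share of genes (y axis, %) whose highest pooled region has a rank at or above the limit on the x axis (log axis), for the 37 factor genes, the 31 synthetase genes and all 19973 protein-coding genes. At the threshold of 491 (dashed line) the shares are 18.9%, 3.23% and 2.47%, and at a limit of 10000 they are 56.8%, 54.8% and 25.2%.

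Among the synthetases, the thresholded gene was ears-2, whose RefSeq product is a mitochondrial glutamyl-tRNA synthetase (IV, 388686 to 390468, minus strand). Its summit at 390481 was 13 bp upstream of its TSS, with signal 38.3 and rank 221. Replicate 2 had signal 28.6 and rank 262, and replicate 1 signal 5.56 and rank 2372. The start of uncp-18 was 79 bp from the summit on the other side. The other glutamate gene, ears-1, had signal 10.8 and rank 7180, at 392 bp downstream of its TSS, with a replicate 2 rank of 8151 and no overlapping region in replicate 1. The pair thus stood far apart in the pooled list and in replicate 2.

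Below ears-2 came fars-1, an enzyme for phenylalanine, with signal 24.7 and rank 618, its summit 932 bp from its own TSS and 110 bp from that of rbm-5. It was followed by nars-1 for asparagine (19.2, rank 1198) and dars-1 for aspartate (17.5, rank 1560). For fars-1 the matched ranks were 1083 in replicate 1 and 919 in replicate 2. The region of dars-1 ranked 2478 in replicate 1 and 24075 in replicate 2. At the lower end were wars-1 for tryptophan (6.62, rank 25429), iars-1 for isoleucine (6.52, rank 26138) and tars-1 for threonine (6.39, rank 27066). The genes aars-2, hars-1, lars-2 and sars-1 had no pooled region in reach, nor any in either replicate list.

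The suffix of a synthetase gene is not a sure guide to its compartment: RefSeq calls the product of aars-1 mitochondrial and that of aars-2 cytoplasmic. Of the 10 genes with a product called cytoplasmic, 8 had a region and 0 a thresholded one, with a median rank of 3569. Of the 4 called mitochondrial, 4 had a region, 1 of them thresholded (ears-2), with a median rank of 6637.5. At the 2.49% of all protein-coding genes, classes of this size would rarely hold a thresholded region, so nothing is read from these counts. The other 17 products name no compartment, and 15 of these genes had a region. By name, the 20 genes with suffix 1 had a median rank of 4648.5 and the 11 with suffix 2 one of 9062. These medians leave out the genes without a region, and the differences were not tested.

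The replicates ranked the same genes differently. All 8 thresholded members had an overlapping region in both replicate lists, with summits 15 to 97 bp from the pooled summit in replicate 1 and 0 to 43 bp in replicate 2. By the highest region within 1000 bp of a TSS, all 8 were among the 491 highest of replicate 2, which also held for 2.45% of all protein-coding genes. In replicate 1 this held for 4 of the 8, eef-2, eif-3.C, eef-1A.2 and eef-1A.1, and for 2.01% of all genes. The other 4 had replicate 1 ranks of 683 (eef-1G), 2372 (ears-2), 4127 (eif-3.B) and 8084 (eif-2Bbeta). Another 2 members were in the first 491 of replicate 1 alone, eif-2Bgamma at rank 76 and gars-1, for glycine, at rank 303. The thresholded list was made from both replicates, so this is a description of it and no independent check.

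**Figure D3:**
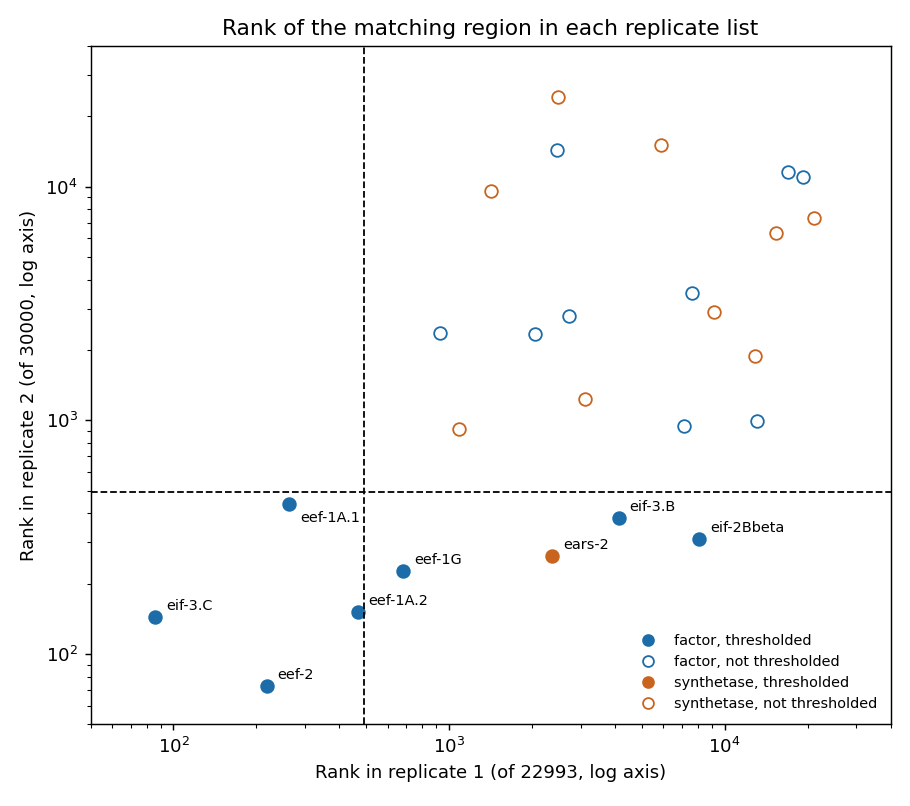
Rank of the region that overlaps the pooled region, in replicate 1 (x axis) and replicate 2 (y axis), both log axes, for the 26 genes with a region in both lists; filled dots are thresholded and dashed lines mark rank 491. All 8 filled dots lie below the horizontal line and 4 of them left of the vertical line, with eif-2Bbeta farthest right of these at rank 8084.

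Over all members, 26 of the 55 with a pooled region (47.3%) had an overlapping region in both replicate lists, and over all protein-coding genes with a region 35.7% did. The shares were 57.1% for the factors and 37.0% for the synthetases. Across the 16 factor genes in both lists, Spearman's rho between replicate signals was 0.64, and across the 10 synthetase genes it was 0.22. These points share the same libraries, and genes are not replicates, so the coefficients are a description. Some members ranked far apart: kars-1, for lysine, had a matched region of rank 557 in replicate 1 and none in replicate 2, and dars-2 one of rank 677 in replicate 1 at a pooled rank of 18928.

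Most of the regions had their summit upstream of the nearest annotated TSS of the gene they stand for. That TSS can be an internal one, so a summit counted as upstream can lie inside the gene, as at ife-1 and pars-2. Of the 55, 40 had their summit upstream of the nearest TSS of the member (72.7%), where 60.8% of all protein-coding genes with a region did. This was so for 23 of 28 factors and 17 of 27 synthetases. All 8 thresholded summits were upstream, from 10 to 392 bp, with a median distance of 167 bp. The upstream share over all protein-coding genes with a thresholded region was not computed, so nothing is read from the 8 being upstream. Over all protein-coding genes with a thresholded region the median distance, on either side of the TSS, was 271.5 bp. Counting the 1000 bp before any protein-coding TSS, 44 of the 55 were in upstream sequence. Coding exons held 5, introns 4, 3′ UTRs 1 and intergenic sequence 1. Many worm mRNAs receive a spliced leader, so an annotated start can be the splice site and not the place where transcription begins.

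**Figure D4:**
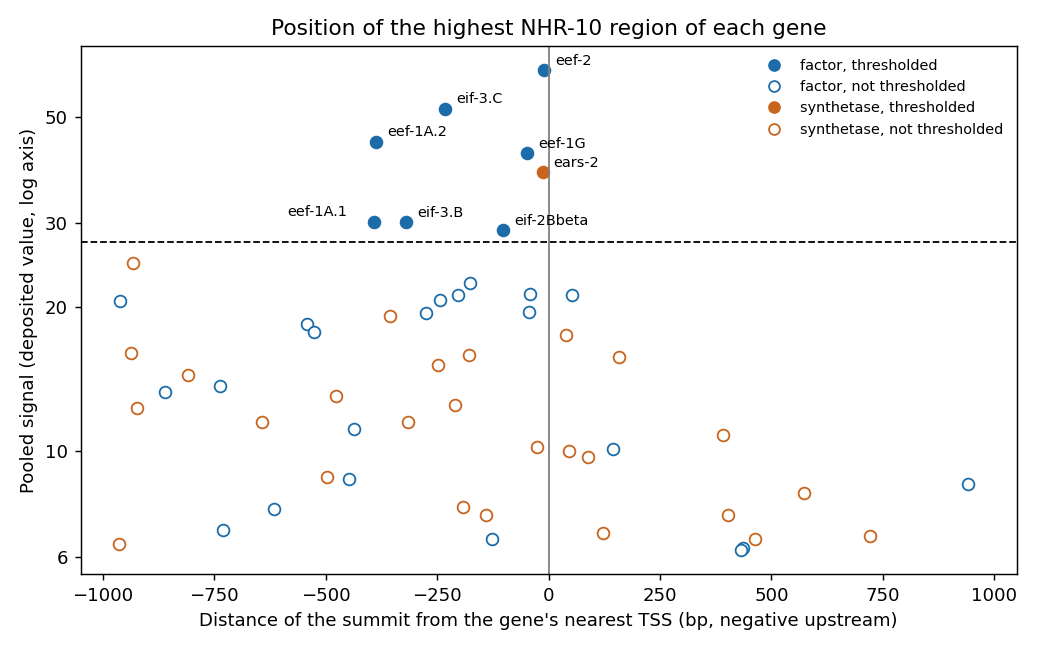
Distance of the summit from the nearest TSS of the gene (x axis, bp, negative upstream) against pooled signal (y axis, deposited value, log axis) for the 55 members with a region; filled dots are thresholded and the dashed line is the lowest thresholded signal, 27.4. All 8 filled dots lie upstream, within 392 bp of the TSS, and the open dots lie on both sides, 32 upstream and 15 downstream.

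Where a promoter is shared, a region cannot be given to a single gene. Another protein-coding gene had a TSS within 1000 bp of the summit at 28 of the 55 regions (50.9%), where 29.9% of all protein-coding genes with a region had such a neighbour. Among the thresholded regions it was so at 5 of 8 (62.5%), close to the 62.4% over all genes with one. In these shares over all genes a region reached by several genes counts for each of them. In each of these 5 the partner is transcribed away from the member: clsp-1 at eef-2, ctf-4 at eef-1G, rfc-4 at eef-1A.1, Y47H9C.8 at eif-2Bbeta and uncp-18 at ears-2. Their RefSeq products are claspin, a WDHD1-type protein, a subunit of replication factor C, a NACHT domain protein and a syntaxin-binding protein, in the same order. The regions at eif-3.C, eef-1A.2 and eif-3.B had no such partner. No 2 members shared a region, and none of the 55 summits was within 500 bp of a tRNA, snoRNA or snRNA gene.

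Of the words searched, GAGAGA was in the 200 bp windows of 3 of the 8 thresholded members, eef-1A.2, eef-1A.1 and eif-2Bbeta. It was in 6 of the 28 factor windows (21.4%) and 4 of the 27 synthetase windows (14.8%), where 13.8% of all pooled regions and 39.7% of all thresholded regions held it. GACGCA was in 1 thresholded member, eif-3.C, and in 29.1% of thresholded regions. The half-site AGTTCA was in 1 factor window, that of eef-1G, and 3 synthetase windows (11.1%), beside 12.7% of all pooled regions. AGGTCA was in none of the 55 windows and in 4.86% of pooled regions. TGATAA was in 5 windows, TGACGT in 2 and CACGTG in 1, where 19.1%, 6.27% and 3.8% of pooled regions held them. None of these windows was thresholded. Of all thresholded regions 9.57%, 8.55% and 8.55% held these words, so nothing is read from their absence at the 8 thresholded members. The median GC content was 38.8% at factors, 35.5% at synthetases and 40.5% at the thresholded members, beside 35.0% over the pooled list and 44.0% over the thresholded list.

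Other genes of the translation machinery, outside these names, were taken as a list of 31. It was chosen with earlier results of these data known, so its share is a description and no independent check on that of the factors. Of the 31, 27 were in the annotation under the symbols used. Of the other 4, iftb-1 and ppp-1 are other names of eif-2beta and eif-2Bgamma, described above, and gfm-2 and mtif-3 were not analysed here. Thresholded regions lay at 5 of the 27 (18.5%), beside 2.49% of all protein-coding genes. They were drr-2, an eIF4H-like factor gene (signal 100.4, rank 28), iff-2 for eIF5A (90.3, rank 36), the translational repressor gene ifet-1 (82.4, rank 45), larp-1 for La-related protein (60.7, rank 84) and the ABC-family gene abcf-2 (36.1, rank 265). At 3 of them another gene was nearer to the summit: rps-1, a ribosomal protein gene, at ifet-1, wip-1 at larp-1 and ant-1.1 at abcf-2. The kinase gene pek-1, named after its value was seen, was just short of the threshold with signal 27.3 and rank 493. Also named after their values were seen were inf-1, egl-45 and the mitochondrial elongation factor genes tufm-1, tufm-2, tsfm-1 and gfm-1. The gene inf-1, for the cap-complex helicase eIF4A, had signal 8.99 and rank 12423, and egl-45, which encodes a further eIF3 subunit, had no pooled region. None of the mitochondrial elongation factor genes was thresholded: tufm-2 had signal 19.3 (rank 1168), gfm-1 11.3 (rank 6361), tsfm-1 6.84 (rank 23680) and tufm-1 6.44 (rank 26767).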

How the data were processed

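The data are ChIP-seq region lists of NHR-10 in L2 larvae, 2 biological replicates of 1 group, in narrowPeak layout. Per the deposited notes, each replicate list was made from 1 alignment and a control, the pooled one from the 2 alignments together, and the thresholded one by applying the irreproducible discovery rate to these. The signal of each region (column 7) is the authors' value as deposited, with no stated scaling. The aligner, region caller and cutoff are not given in the sources used here. Lists on ce10 and the control were not analysed here.

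Genes and TSSs came from Ensembl release 115 (WBcel235, all transcript starts), and sequence and products from RefSeq on the same assembly. Rank 1 is the highest signal of a list. A replicate region matched if it overlapped the pooled region by at least 1 bp, and the highest was taken. Words were searched in 200 bp windows, both strands. No test was run: there is 1 group, and the members, lists, words and the rank limit of 3000 were chosen with earlier results of these data known. The rule for named genes took every member with a thresholded region, the 3 highest below the threshold and the 3 lowest of each class, members with no region and the ears pair. Other members described were named after their values were seen. Code was checked on simulated data. Python 3.11.15, numpy 2.4.6, scipy 1.17.1 and matplotlib 3.10.9 were used.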

Additional observations from a re-analysis of the deposited data

How the results depend on the processing

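The count of thresholded members held within 1.5 times under most alternatives: TSS distances of 500 and 2000 bp, the outermost start, the nearest gene only, any thresholded summit and identical coordinates gave 6 to 8 factors and 1 synthetase. At 2000 bp ife-3 was added, and with the nearest gene only eef-1A.1 was lost. The share of all protein-coding genes moved too, from 2.49% in the main setting to 1.84% at 500 bp. It was 3.48% at 2000 bp and 1.69% with the nearest gene only. In the same order of settings, the factor shares were 18.9%, 18.9%, 21.6% and 16.2%. In the upper 50% of thresholded regions 4 factors were left, without eef-1A.1, eif-2Bbeta and eif-3.B, and all protein-coding genes fell to 253. With one replicate left out, factors ran from 5 to 7, synthetases from 1 to 1 and all genes from 402 to 490. Without replicate 2 (the replicate 1 list alone) eef-1G, eif-2Bbeta and eif-3.B were lost and eif-2Bgamma gained, and the synthetase was gars-1 in place of ears-2. Without replicate 1 the members called were those of the thresholded list. Over TSS settings the median rank ran from 1045 to 1257 for factors and 5967.5 to 7645 for synthetases. Summits within 100 bp left 19 members with a partner in both replicates, and any region near a TSS gave 34. In 100 bp windows GAGAGA was in 6 members (10 in 200 bp), TGATAA in 3 (5), TGACGT in 1 (2) and CACGTG in 0 (1). No paired analysis was possible because there is 1 group. Depth is unknown, so a gene without a region in the pooled list cannot be called unbound, and 6 of these 13 genes had a region in a replicate list.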
